A study of Mus musculus with 3 samples.

Results

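The tumour suppressor p53, the proteins that hold it in check and a set of its target genes were examined in a map of HIF1α binding in mouse embryonic hearts. The 10 genes were taken as a fixed list: Trp53, its regulators Mdm2 and Mdm4, the apoptosis genes Bax, Bbc3, Pmaip1, Phlda3 and Trp53inp1, and the target genes Zmat3 and Ccng1. They are 10 of 21775 protein-coding nuclear genes of the annotation used. For each gene, every peak was taken whose centre lay inside the gene or within 50 kb of either end. This gave 18 of the 17289 peaks of the authors' merged list, and no peak fell to more than 1 of the 10 genes.

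The series consists of 2 HIF1α pulldown libraries and 1 input library, which is chromatin that was not immunoprecipitated. All 3 were sequenced from hearts of wild-type Black-Swiss mouse embryos at E12.5 (embryonic day), with no treatment or mutation named. Each peak carries a whole-number score given by the authors, from 2 to 3315 over the list, and a count of merged calls, 1 or 2. The list holds no value for a single library, so the values have no replicate error and could not be tested, and the read depth is unknown. Whole hearts were used, so the cells in which a site was occupied cannot be told apart. A peak list gives no expression, and the tissue could not be checked against marker genes.

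p53 is a transcription factor that is kept low by the ubiquitin ligase Mdm2 and its partner Mdm4, and that accumulates after DNA damage, oncogene activity and other stress. It then activates genes of growth arrest, DNA repair and apoptosis, among them Mdm2 itself, which closes a feedback loop. HIF1α, a transcription factor subunit that is stabilised when oxygen is low, pairs with ARNT and binds short DNA sites with the core ACGTG or GCGTG. The embryonic heart develops at low oxygen and needs HIF1α, and loss of Mdm2 or Mdm4 is lethal in mouse embryos through unrestrained p53.

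Of the 10 genes, Bax alone had a peak of 2 calls at its own promoter. Bax (chr7:45461695-45466903; all positions are on mm10) encodes the pore-forming protein that permeabilises the outer mitochondrial membrane. The promoter sequences shown here hold the 250 bases before a RefSeq start site and the 50 bases that begin with it, and are written from 5′ to 3′ in the direction of transcription, from RefSeq on GRCm38.p6. The start site is base 251 of each window. Capitals mark each match to ACGTG or GCGTG on either strand, CACGC being GCGTG read on the other strand, and adjoining capitals CACGTG hold 2 overlapping matches, 1 on each strand. The first 2 windows are shown because a peak covers part of them, and the other 3 because they hold a core sequence with no peak over it.
Bax, chr7:45466849-45467148, minus strand: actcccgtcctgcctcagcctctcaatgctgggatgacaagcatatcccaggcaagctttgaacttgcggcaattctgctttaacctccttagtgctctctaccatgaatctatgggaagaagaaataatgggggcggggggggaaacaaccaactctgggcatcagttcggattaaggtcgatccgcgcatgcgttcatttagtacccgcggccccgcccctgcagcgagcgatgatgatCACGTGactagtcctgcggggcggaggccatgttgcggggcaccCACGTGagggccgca
Ftl1, chr7:45459837-45460136, minus strand: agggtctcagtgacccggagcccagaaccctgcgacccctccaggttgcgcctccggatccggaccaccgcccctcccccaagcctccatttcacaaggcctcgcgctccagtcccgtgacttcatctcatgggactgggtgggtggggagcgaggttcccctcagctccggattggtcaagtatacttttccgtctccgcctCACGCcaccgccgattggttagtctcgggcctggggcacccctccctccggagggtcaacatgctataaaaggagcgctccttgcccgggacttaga
Trp53, chr11:69580109-69580408, plus strand: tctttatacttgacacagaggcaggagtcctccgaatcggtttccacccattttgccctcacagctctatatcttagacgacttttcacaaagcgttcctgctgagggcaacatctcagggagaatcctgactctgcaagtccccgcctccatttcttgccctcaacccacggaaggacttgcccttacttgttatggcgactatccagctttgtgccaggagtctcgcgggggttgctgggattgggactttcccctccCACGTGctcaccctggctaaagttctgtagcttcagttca
Mdm2, chr10:117710709-117711008, minus strand: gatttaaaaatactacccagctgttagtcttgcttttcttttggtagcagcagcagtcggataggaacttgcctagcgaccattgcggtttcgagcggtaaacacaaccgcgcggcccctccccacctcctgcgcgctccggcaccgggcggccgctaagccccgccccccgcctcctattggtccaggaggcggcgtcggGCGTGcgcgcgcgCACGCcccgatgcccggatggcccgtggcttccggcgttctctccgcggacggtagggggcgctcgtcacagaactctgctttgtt
Bbc3, chr7:16310181-16310480, plus strand: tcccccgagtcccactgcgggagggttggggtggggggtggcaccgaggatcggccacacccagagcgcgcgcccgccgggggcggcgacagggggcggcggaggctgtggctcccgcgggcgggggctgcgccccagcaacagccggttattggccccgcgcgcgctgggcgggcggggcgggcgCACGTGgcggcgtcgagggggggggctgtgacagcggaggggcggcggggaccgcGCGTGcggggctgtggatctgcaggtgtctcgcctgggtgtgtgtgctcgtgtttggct

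The Bax peak spanned chr7:45466809-45466929, had a score of 6 and came from 2 merged calls. Its centre lay 34 bp inside the gene from the end and 29 bases after the start site. Among all peaks of the list 4.08% scored 6 or more, and among peaks of 2 calls 29.2% did. The peak covered bases 220 to 300 of the Bax window. Both CACGTG matches of the window, at bases 242 to 247 and 286 to 291, lie in that covered stretch. Of 21262 promoter windows of protein-coding genes, 7.84% hold CACGTG at least once and 0.748% hold it 2 or more times. CACGTG is also the E-box bound by MYC and related factors, so the letters do not tell which factor could bind there.

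Bax had 3 more peaks in its window, and each lay closer to another gene. A 1-call peak scoring 4 at chr7:45460012-45460112 was 1.63 kb from Bax but 176 bp before the start site of Ftl1, which encodes the light chain of the iron store ferritin. It covered bases 25 to 125 of the Ftl1 window, and the single GCGTG match of that window, at bases 204 to 208, lies outside the covered stretch. The highest score of all 18 peaks, 15 from 2 calls, belonged to chr7:45434513-45434619, 27.1 kb from Bax. That peak lay 273 bp before the start site of Gys1 (muscle glycogen synthase) and 102 bp before a start site of Ruvbl2, an ATPase of chromatin remodelling complexes. In the whole list 101 peaks (0.584%) scored 15 or more. The last peak, of 2 calls, scoring 2, lay inside Dhdh, 14.7 kb from Bax and 419 bp from an end of Tulp2. Of the 4 peaks counted for Bax, the promoter peak is thus the single one that lies nearer to Bax than to any other protein-coding gene.

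**Figure D1:**
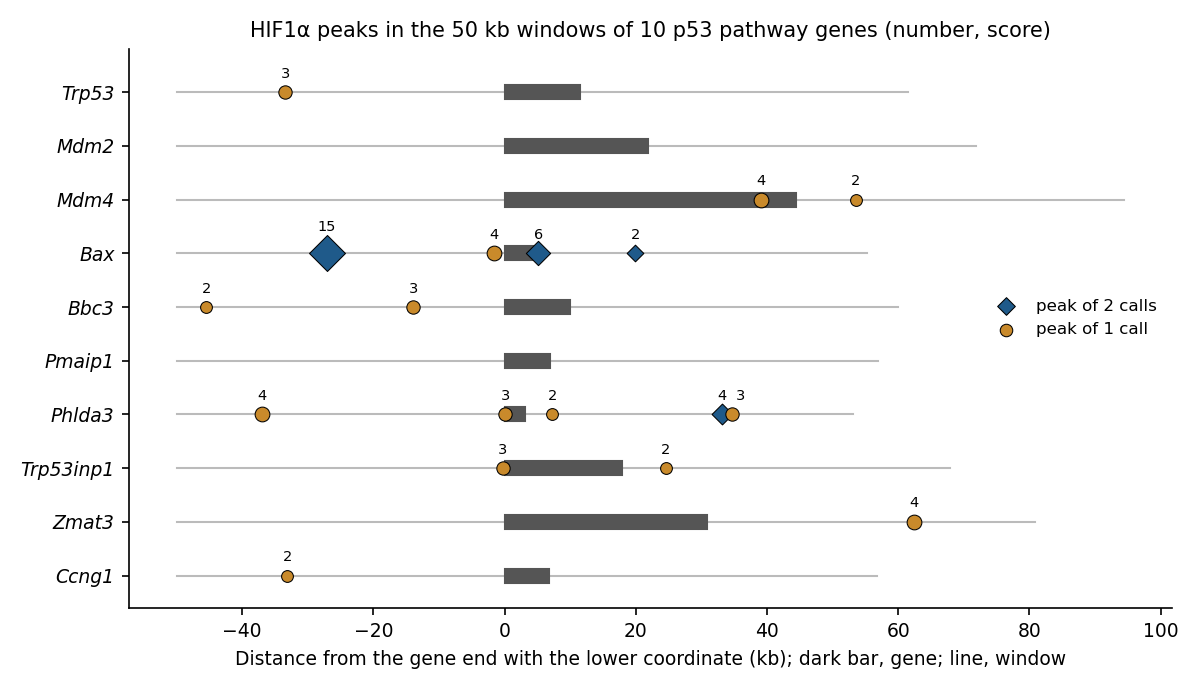
Peaks in the window of each of the 10 genes, with the distance from the gene end of lower coordinate in kb on the horizontal axis, the gene as a dark bar and the window as a line. Diamonds are peaks of 2 calls, circles are peaks of 1 call, and each number is the score: the 4 diamonds lie in the windows of Bax (15, 6 and 2) and Phlda3 (4), and the windows of Mdm2 and Pmaip1 are empty.

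Over the 10 genes, 8 had at least 1 peak in the 50 kb window, against 64.8% of all protein-coding genes. Within 5 kb of a gene end 3 of the 10 had a peak, against 24.0% of all genes. The same 3 genes, Bax, Phlda3 and Trp53inp1, had a peak within 1 kb, against 16.3% of all genes. With peaks of 2 calls alone, Bax was the only member with a peak within 1 kb or 5 kb, against 5.54% and 7.72% of all genes. With so few members, these counts of 3 and 1 stay near the shares of all genes, and no difference from other genes is read from them. A peak lay inside 3 of the 10 genes (Mdm4, Bax and Phlda3), against 21.1% of all genes, and 2 of the 10, Bax and Phlda3, had a peak of 2 calls in the 50 kb window, against 21.4%. By distance to a RefSeq start site, which is known here for 7 of the 10 genes, Mdm4, Bax and Phlda3 had a peak within 1 kb, against 16.6% of 17491 genes. With peaks of 2 calls that left Bax, against 5.72% of these genes. The median distance from a gene end to the nearest peak was 22.7 kb for the 10 genes and 28.3 kb for all protein-coding genes.

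The windows differed in how many peaks they held. Phlda3 had 5 peaks and Bax had 4, which together is 9 of the 18. Mdm4, Bbc3 and Trp53inp1 had 2 each, Trp53, Zmat3 and Ccng1 had 1 each, and Mdm2 and Pmaip1 had none. Among all protein-coding genes 6.28% had 4 or more peaks and 2.63% had 5 or more. The 3 peaks of 2 calls in the Bax window are a number reached by 0.767% of genes, though 2 of them lie at neighbours. The 10 windows held 15.5 peaks per Mb of window, against 8.55 per Mb for the windows of all protein-coding genes. Without Bax and Phlda3, the members with the most peaks, the value was 9.47 per Mb over 8 genes. Leaving them out lowers the value by construction, and the windows of all genes were not trimmed in this way. In number of peaks, 291 protein-coding genes equal Phlda3, 795 equal Bax, and 7665 equal Mdm2 and Pmaip1.

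Of the 18 peaks, 4 were of 2 calls (22.2%), against 11.5% of the whole list. The median score of the 18 was 3, against 2 in the list. Scores of 4 or more were held by 7 of the 18 (38.9%), against 15.4% of the list, and scores of 5 or more by 2 of the 18 (11.1%), both in the Bax window, against 7.48% of the list. Most of the 18 were not close to the gene they were counted for: 13 lay over 5 kb from its ends, and 12 were nearer to an end of another protein-coding gene. Of these, 6 lay within 1 kb of an end or a listed start site of that other gene. Among the peaks scoring 4 or more, those at the Bax promoter and inside Mdm4 alone were nearer to a member than to another gene. The rest lay at start sites of Gys1 and Ruvbl2, Ftl1, Csrp1, Tnni1 and Pik3ca. Of the 4 peaks of 2 calls, 1, at the Bax promoter, was nearest to a member. The shares of high scores and of 2 calls thus come mostly from peaks at neighbours.

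The gene for p53 itself had no peak nearby. The nearest one to Trp53 (chr11:69580348-69591873) was centred 33.4 kb from the gene (chr11:69546888-69546988), inside the axonemal dynein gene Dnah2, 2170 bases after a start site of that gene. It was of 1 call and scored 3, and 53.9% of all protein-coding genes had a peak at least as close to an end. The Trp53 window shown above holds CACGTG at bases 261 to 266, just after the start site. The same letters are thus present at Trp53 and at Bax, and of these the list has a peak over those at Bax and not over those at Trp53.

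Of the inhibitors of p53, Mdm2 (chr10:117688875-117710758) was the farthest member from any peak. Its nearest peak, of 1 call, scoring 3, lay 195 kb away, and 91.0% of all genes had a closer or equal one. The Mdm2 window shown above holds GCGTG at bases 202 to 206 and, on the other strand, at bases 215 to 219. RefSeq lists a single start site for Mdm2 in the promoter table, and the start site in its first intron that p53 is known to use was not covered by that window.

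Mdm4, which binds p53 and blocks its activation domain, had a peak at chr1:133025173-133025273, inside the gene (chr1:132986105-133030587). It was of 1 call and scored 4, and 8.22% of peaks of 1 call score at least that. Its centre lay 5.36 kb from the gene end, just outside the 5 kb limit, but 193 bases after a second, internal start site. An end of the pseudogene Gm29257 lay 601 bp from the same peak centre. The promoter window of that internal start site ends 93 bp before the peak begins. The window holds no match to ACGTG or GCGTG, and neither does the window of the upstream Mdm4 start site. The other Mdm4 peak, of 1 call, scoring 2, lay 9.03 kb from the gene and 6.06 kb from an end of Pik3c2b, a phosphoinositide kinase gene.

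The BH3-only genes of the 10, Bbc3 and Pmaip1, whose products free or activate Bax and Bak1, had no peak close by. Bbc3, which encodes PUMA (chr7:16308398-16318334), had its nearest peak 13.9 kb away (chr7:16294449-16294549, 1 call, score 3), and that peak was nearer to an end of Ccdc9, at 7.69 kb. A further 1-call peak scoring 2 lay 45.5 kb from Bbc3 and 3.37 kb from an end of the complement receptor gene C5ar1. All 3 promoter windows of Bbc3 hold a core: 4 matches of GCGTG in the first, 1 in the second, and CACGTG at bases 187 to 192 with GCGTG at bases 242 to 246 in the third, which is shown above. Pmaip1, which encodes NOXA, had no peak in its window, and its nearest peak lay 189 kb away with 1 call and a score of 2.

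Phlda3 and Trp53inp1 each had a peak of 1 call within 1 kb of a gene end. At Phlda3 (chr1:135766085-135769134), which encodes a PH domain protein that restrains AKT signalling, a peak with a score of 3 was centred 117 bases after the start site (chr1:135766152-135766252). It begins 17 bp beyond the Phlda3 promoter window, which holds no match to either core. A 1-call peak scoring 2 lay 4.19 kb from the other end of Phlda3. Trp53inp1 (chr4:11156441-11174379), a stress-induced partner of p53 in apoptosis and autophagy, had a peak with a score of 3 centred 278 bp outside the gene (chr4:11156113-11156213). No other gene end lay within 1 kb of that peak. The second peak in the Trp53inp1 window, scoring 2, lay 6.61 kb beyond the gene, from 1 call and inside the long noncoding RNA gene A630034I12Rik (chr4:11180938-11181038). A score of 3 or more is held by 37.5% of all peaks of 1 call, so a score of 3 is not rare among them.

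The other peaks in the Phlda3 window lay inside its neighbours Tnni1 and Csrp1. A 2-call peak scoring 4 lay 30.1 kb from Phlda3 and 145 bases before a start site of Tnni1 (chr1:135799195-135799358), which encodes slow skeletal troponin I, the isoform of the fetal heart. Beside it, inside Tnni1, was a 1-call peak scoring 3. At Csrp1, a LIM domain protein gene, a 1-call peak scoring 4 was centred 10 bases after a start site, 36.9 kb from Phlda3.

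The remaining targets, Zmat3 and Ccng1, had no peak within 30 kb. Zmat3 (chr3:32334792-32365665) encodes an RNA-binding zinc finger protein, and its 1-call peak scoring 4 lay 31.5 kb away at Pik3ca (chr3:32397091-32397191). That peak was 76 bases after a start site of Pik3ca, the catalytic subunit gene of phosphoinositide 3-kinase. Ccng1 (chr11:40748552-40755309) encodes cyclin G1, which brings a phosphatase to Mdm2, and its 1-call peak scoring 2 lay 33.1 kb away inside Hmmr. The Ccng1 promoter window holds 1 match to GCGTG, at bases 154 to 158.

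**Figure D2:**
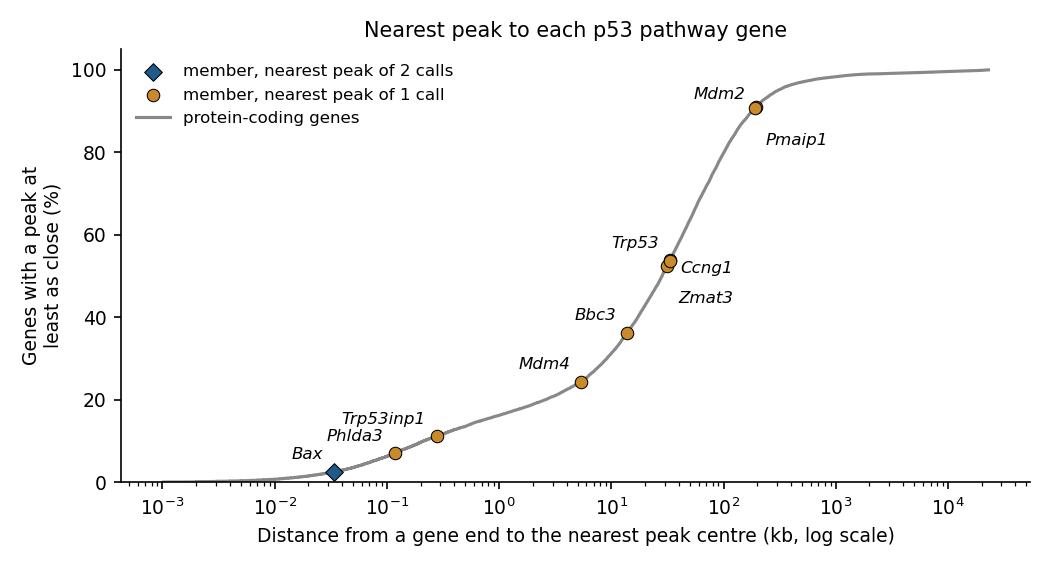
Distance from a gene end to the nearest peak centre in kb on a log scale, against the percentage of protein-coding genes with a peak at least as close, with the 10 genes as points and all 21775 genes as the curve. The points run from Bax at 34 bp to Mdm2 at 195 kb, and the Bax point alone is a peak of 2 calls.

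RefSeq promoter windows were matched for 7 of the 10 genes, 10 windows in all. Of these windows 7 hold ACGTG or GCGTG, against 49.3% of the 21262 windows of protein-coding genes, and 1, that of Bax, is overlapped by a peak. Bbc3 supplies 3 of the windows, some of which overlap. By gene, 5 of the 7 hold a core. Over all 21262 windows, the share with a core was 75.6% where any peak overlapped, 80.1% where a peak of 2 calls overlapped and 46.4% where none did. ACGTG was held by 52.2% of the windows overlapped by a peak of 2 calls and by 18.8% of the windows without a peak. Each ACGTG match at Bax is part of CACGTG, for which these shares were 14.5% and 7.27%. For 2 or more CACGTG matches, as at Bax, they were 1.74% and 0.627%. The windows of Trp53, Mdm2, Bbc3 and Ccng1 hold a core and no peak overlaps them, as is so for most windows that hold a core.

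The same windows were searched for the p53 half-site consensus and for a pair of half-site cores at a fixed spacing. The p53 half-site consensus was found once each in the windows of Trp53, Mdm2, Bax and Ccng1, and 7.37% of all windows hold it. The pair was found in 0 of the 10 windows, against 0.701% of all windows. The half-sites found have the core CAAG or CTTG, which the search for paired CATG cores could not match. Partners with a mismatch to the consensus were not searched for. Whether any of these half-sites is part of a full p53 site was therefore not tested. At Bax the half-site lay at bases 50 to 59, outside the stretch covered by the HIF1α peak. Sites in introns, where several p53 targets are known to hold theirs, lie outside these windows.

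**Figure D3:**
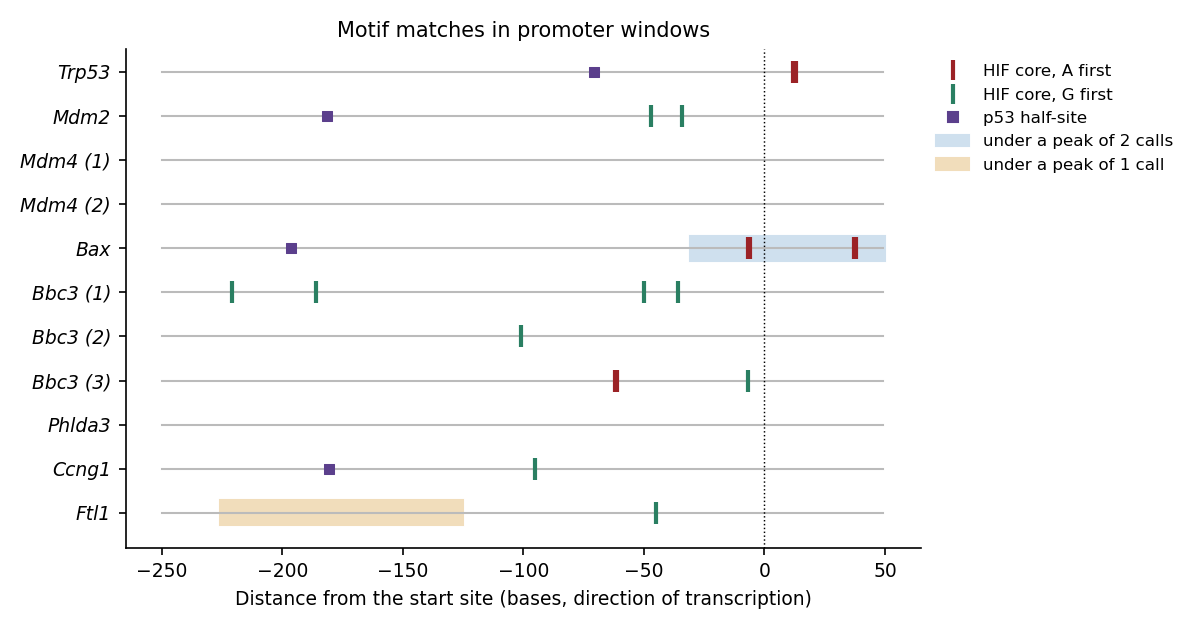
Matches to the HIF core and to the p53 half-site consensus in the promoter windows of 7 of the genes and of Ftl1, with the distance from the start site in bases on the horizontal axis and shading where a peak lies. Both CACGTG matches of Bax lie under its peak of 2 calls, the shaded part of the Ftl1 window holds no match, and Mdm4 and Phlda3 windows have no match.

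A wider list of 71 genes placed these 10 in their pathway. It was divided by role into kinases and a cofactor of the damage response, regulators of p53, the BCL2 family with the apoptosome, and arrest, repair and other targets. Of the 71 genes, 29 (40.8%) had a peak within 5 kb of an end, against 24.0% of all protein-coding genes, and 9 (12.7%) had a peak of 2 calls there, against 7.72%. The lists were chosen with earlier results known and no test was made, so these shares are descriptive.

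In the BCL2 family and apoptosome list 11 of 20 genes (55%) had a peak within 5 kb, against 24.0% of all protein-coding genes. Of the 20, 5 (25%) had a peak of 2 calls there, against 7.72% of all genes. Bcl2l11, which encodes the BH3-only protein BIM, had a 2-call peak scoring 7, 190 bp from the gene. Bcl2l2, a survival gene of the family, had one of 2 calls, scoring 3, at 18 bp. Cycs, which encodes the cytochrome c that starts the apoptosome, had one of 1 call, scoring 4, at 184 bp. Others with a peak of 2 calls, named after their values were seen, included Bad (score 4 at 247 bp) and Bcl2l1 (score 5 at 4.22 kb). The peak of Bcl2l1 lay closer to Cox4i2, at 598 bp.

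Among the arrest, repair and other targets 12 of 31 genes (38.7%) had a peak within 5 kb, against 24.0% of all protein-coding genes. Of the 31, 3 (9.68%) had a peak of 2 calls there, near the 7.72% of all genes. The closest were Plk3 (1 bp, score 2, 1 call), Ddb2 (19 bp, score 3, 2 calls), Xpc (89 bp, score 3, 1 call) and Polk (97 bp, score 4, 1 call). Ddb2 and Xpc encode DNA damage sensors of nucleotide excision repair. The peak of Xpc was closer to Lsm3, at 58 bp, and that of Polk closer to Cert1, at 33 bp. The other genes of this list with a peak of 2 calls, named after their values were seen, were Cdkn1a and Ccng2. Cdkn1a, which encodes the cell cycle inhibitor p21, had its peak inside the gene, with a score of 4. It lay 4.39 kb from an end and 1603 bases after a listed start site. Ccng2, the paralogue of Ccng1, had a 2-call peak scoring 8, centred 586 bases before a start site, where Ccng1 had none within 30 kb.

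Among the regulators and kinases, Atr was the single gene with a peak of 2 calls within 5 kb. That is 14.3% of its list and 0% of the regulators, against 7.72% of all protein-coding genes. In the list of ubiquitin ligases and other regulators 4 of 13 genes (30.8%) had a peak within 5 kb, against 24.0% of all genes. Each peak was of 1 call, and the genes were Sirt1 (33 bp, score 3), Crebbp (89 bp, score 3), Ep300 (151 bp, score 4) and Kat5 (1.61 kb from an end but 148 bases after a start site, score 3). These encode a deacetylase and acetyltransferases that act on p53. Among the damage kinases and Trp53bp1, 2 of 7 genes (28.6%) had a peak within 5 kb: Hipk2 (33 bp, score 4, 1 call) and Atr (73 bp, score 5, 2 calls). The genes of that list without a peak in the 50 kb window, named after their values were seen, were Atm, Chek1 and Trp53bp1. The shares of these lists of regulators and kinases stay near those of all genes, and no difference is read from them.

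**Figure D4:**
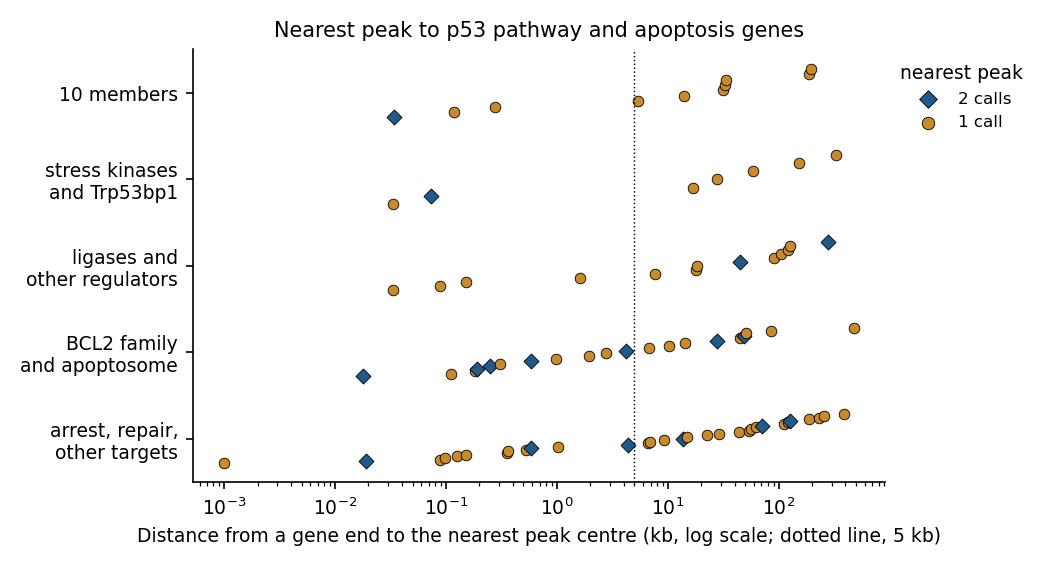
Distance in kb, on a log scale, from a gene end to the nearest peak centre for the 10 genes and for each of the 4 role lists, with diamonds where that peak has 2 calls and circles where it has 1. Points left of the dotted line at 5 kb number 3 of 10 for the members and 2 of 7, 4 of 13, 11 of 20 and 12 of 31 for the lists from top to bottom.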

How the data were processed

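Hearts were cross-linked with 1.5% formaldehyde for 10 minutes and the chromatin, with fragments averaging 200 bp, was immunoprecipitated using 4 μg of anti-HIF1α antibody, per the labels' protocols. The labels do not say whether both pulldowns came from separate pools of embryos. Bowtie2 and HOMER on mm10 are named in the submitters' processing notes, without versions. The authors deposited 1 merged list of peaks, called in each pulldown against the same input per the file headers, with a whole-number score per peak whose scale is not given in the sources used here. The threshold and merging rule are likewise not given. The last number of a peak's name, 1 or 2, was read as its merged calls: 1-call peaks are 101 bp wide and 2-call peaks 101 to 201 bp.

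Gene spans came from a RefSeq table of GRCm38.p6, the build mm10 corresponds to. Mitochondrial genes and, except on chromosome Y, genes that start before 3 Mb were dropped. Start sites, strand and sequence came from RefSeq promoter windows of the same assembly, matched by gene ID. Where windows of opposite strands overlapped, all 1668 pairs held the same bases. Distances run from peak centres to gene ends, and positions are 1-based. Exons and introns were not resolved, and peak sequences outside promoter windows were not used here. Shares of genes by gene end or 50 kb window are over 21775 protein-coding genes, and those by start site over 17491 with a promoter entry. Motif shares are over promoter windows, and shares of scores and calls are over peaks. Tools were Python 3.11.15, numpy 2.4.6 and pandas 2.3.3, and the peak assignment was tested on simulated data.

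Genes named are the 10 members, genes with an end nearer to or within 1 kb of their peaks, and up to 4 closest genes of each role list with a peak within 5 kb. Of the neighbours, only the protein-coding gene nearest to each peak, genes that hold it and genes with an end within 1 kb of it are named, for brevity. Some genes of the role lists are counted but not reported here by name. Others are said to be chosen after their values were seen. Members and lists were chosen with earlier results of these data known. Alternatives changed the window, score, calls, assignment and use of centres.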

Additional observations from a re-analysis of the deposited data

How the results depend on the processing

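No paired analysis was possible because the merged list holds no value for a single pulldown, and for the same reason no replicate could be left out. Of 44 alternatives, 22 stayed within 1.5 times the reported count and 22 did not. For the 18 peaks of the 10 genes, the count was 7 at scores of at least 4, 4 with peaks of 2 calls alone, 6 with each peak given to its nearest protein-coding gene, 10 in a 20 kb window, 28 in a 100 kb window and 3 inside the genes alone. For the 8 genes with a peak in the window, these settings gave 4, 2, 4, 5, 8 and 3. The 3 genes near a peak at 5 kb and at 1 kb fell to 1, Bax, both at scores of at least 4 and with peaks of 2 calls alone. The 4 peaks of 2 calls became 1 by nearest gene, 2 in a 20 kb window, 7 in a 100 kb window and 1 inside the genes. For the wider list, 29 became 15 at scores of at least 4, 9 with peaks of 2 calls and 49 at 50 kb. With each peak given to its nearest protein-coding gene the count was 21, which is within 1.5 times of 29. The share of all genes under that setting was not computed. Each of these settings uses fewer peaks or another window by construction. At 10 kb, and with peaks inside genes counted, the count was 4, with Mdm4 added. With start sites in place of gene ends, 3 of 7 genes had a peak within 1 kb, against 16.6% of genes. The 10 kb and start site settings were chosen after seeing the data. Matches in the peaks themselves were not run, for lack of a genome. The depth of the libraries is unknown, so a gene without a peak is one where none was listed.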

Other observations

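In the wider list of 71 genes, the nearest peak lay closer to an end of another protein-coding gene for 33, and for 17 of these it was within 1 kb of that other end. For 6 genes over 5 kb from a peak, the nearest peak had 2 calls and lay at another gene. It was 20 bp from Mrpl58 for Fdxr, 25 bp from Bub1b for Bmf, 79 bp from Lrrc47 for Trp73 and 118 bp from Phf8 for Huwe1. For Sesn2 it was 403 bp from Phactr4, and for Bak1 it was 611 bp from Itpr3. Mrpl58 encodes a mitochondrial ribosomal protein and Bub1b a kinase of the spindle checkpoint. These genes were chosen after their values were seen.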
